A study of Mus musculus with 6 samples.

Results

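Homologous recombination and Fanconi repair genes were compared between wild-type (WT) and ΔrsCBE small pre-B cells of mouse bone marrow. The group was a list of 41 genes, taken by symbol from a count table of 49997 gene symbols. It covers homologous recombination, the Fanconi anaemia pathway and the checkpoint that answers stalled replication forks. Of the 41 genes, 29 had at least 60 counts summed over the 6 libraries and are described below with their values. The sum was 66 counts for Fanca, just inside that limit, and 54 counts for Xrcc3, just outside it. The other 12 genes had fewer counts, and Atrip is listed at 0 in every library. Of the 29 genes, 28 passed the low-count filter of the test across 7792 genes, and Rad51ap1 did not.

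The WT and ΔrsCBE mice were C57BL/6 animals of 6 to 12 weeks, and each genotype had 3 RNA-seq libraries. The Δ stands for a deletion, whose interval is not given in the sources used here. How many mice went into a library is not stated either, so p-values measure the spread between these libraries, which may be technical in part. Small pre-B cells follow the dividing large pre-B stage, and most of them are resting while they rearrange light chain genes. Libraries held 428106 to 1300805 counts, with 12228 to 14267 genes detected in each. ΔrsCBE replicates 2 and 3 had 1603 and 1430 counts of Xist, the RNA made from the inactive X chromosome of female cells, and no other library had more than 1. These libraries had 0 counts of 4 Y-linked genes, against 121 to 452 in the rest, so all WT libraries had a male pattern and 1 ΔrsCBE library did. The B-lineage label was matched by the markers: all 11 B-lineage genes, among them Cd79a, Pax5, Rag1 and Il2ra, had counts in every library and none passed the test. They summed to 11203 to 12979 CPM in WT and 12386 to 12924 CPM in ΔrsCBE (CPM, counts scaled to a common normalised library size). Of 8 erythroid and 9 T and NK cell markers, 7 and 7 are listed at 0 in all libraries. Of 8 myeloid markers 3 are at 0, among them Elane and S100a8, and 1 was tested and did not pass. The myeloid list summed to 53.1 to 83.4 CPM in WT and 54.5 to 68.2 CPM in ΔrsCBE. The 7 plasma cell markers summed to 1653 to 1710 CPM in WT and 1564 to 1856 CPM in ΔrsCBE. Of these 4 were tested and 0 passed.

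Homologous recombination copies an intact sister chromatid to mend a broken DNA end, which makes it a pathway of the S and G2 phases. The end is first cut back to single-stranded DNA, BRCA1 with BARD1 and then PALB2 and BRCA2 prepare it for strand exchange, and helicases and nucleases resolve the joined molecules. The Fanconi proteins act where the strands are crosslinked: a core complex attaches ubiquitin to FANCD2 and FANCI, and repair then runs through recombination. ATR and CHK1, with TOPBP1 and Claspin, hold back the cell cycle while forks are stalled. In developing B cells the breaks made by the RAG recombinase are joined mainly by another route, classical end joining, while these genes are tied to cells that replicate.

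Among the 41 genes, Neil3, Polq, Fanci and Bard1 fell in ΔrsCBE, by 1.95-fold to 2.73-fold. No member rose. Values of 3 libraries are listed in the order of replicates 1 to 3. The threshold was a Benjamini-Hochberg adjusted p-value of 0.05 over all tested genes in the quasi-likelihood test of edgeR. By this rule 4 members were lower against 1.49% of all tested genes, and 0 were higher against 0.205%. An unadjusted p-value under 0.05 with a lower level was reached by 12 of the 28 tested members, against 6.02% of all tested genes, and no member reached it with a higher level. The CPM values of the genotypes did not overlap for 12 tested members, all lower in ΔrsCBE, where 8.92% of all tested genes were lower and 7.23% higher without overlap. The log2 fold change was below 0 for 23 of the 28 and above 0 for 5, with a median of -0.47 and a range from -1.45 to 0.27. The median over all tested genes was 0.01. In bulk RNA, fewer cells that express a gene and less RNA per cell cannot be told apart.

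**Figure D1:**
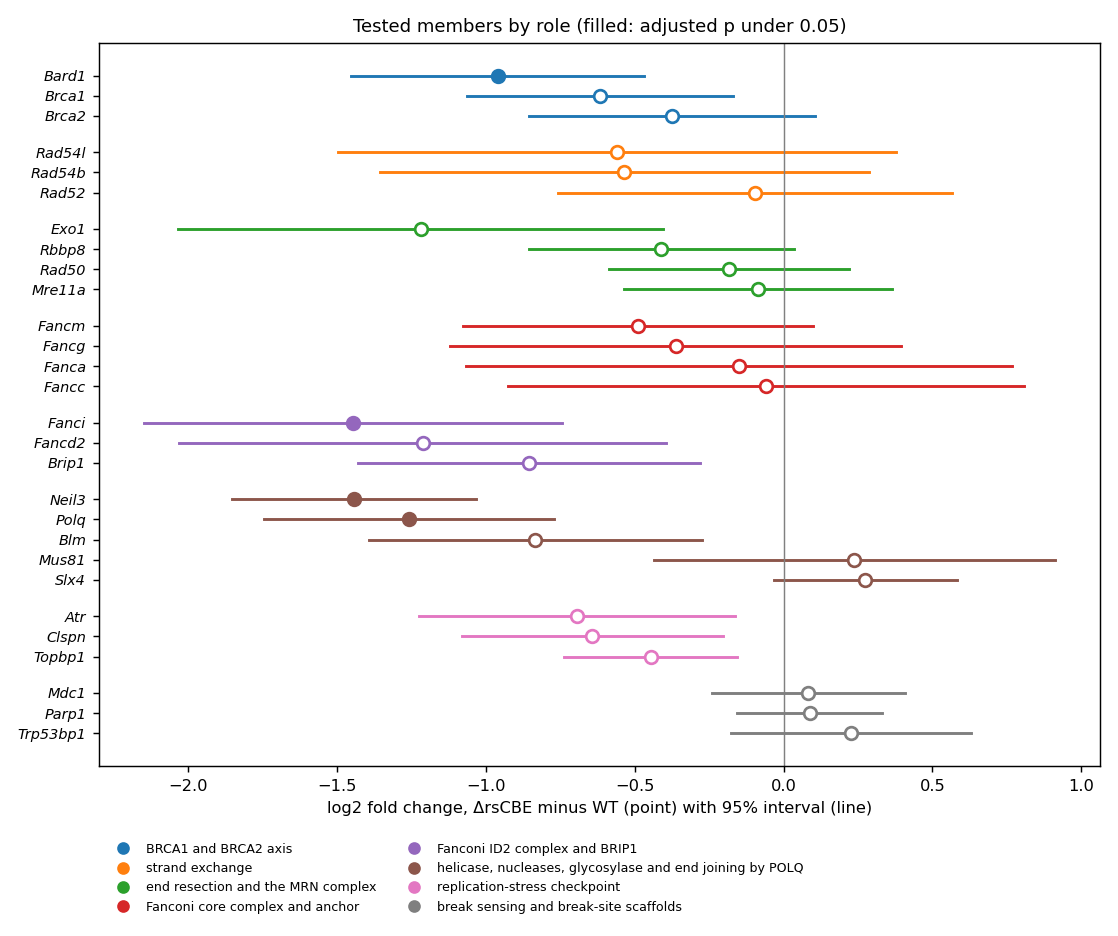
Log2 fold changes (ΔrsCBE minus WT, horizontal axis) of the 28 tested members, with points for the estimate and lines for the 95% interval, grouped by role in colour. The 4 filled points, Neil3, Polq, Fanci and Bard1, are those past the threshold, and the 3 break-site genes at the bottom lie near 0.

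The promoters of these 4 genes are shown because the genes were lower together. Each window holds 250 bases before and 50 after the transcription start in RefSeq (GRCm38.p6), written 5′ to 3′ on the gene's strand. Capitals mark letters found on either strand of E2F-type motifs (TTTGGCGC, TTTCGCGC, TTTCCCGC or TTTGGCGG), CHR-type motifs (TTTGAA or TTCGAA) and the NF-Y-type motif (CCAAT). E2F factors act on genes of S phase, and the CHR element and NF-Y sites are known from genes of G2 and M phase. Neil3 lies at chr8:53639016-53639315 on the minus strand, Polq at chr16:37011536-37011835 on the plus strand, Fanci at chr7:79392088-79392387 on the plus strand and Bard1 at chr1:71102923-71103222 on the minus strand.
Neil3: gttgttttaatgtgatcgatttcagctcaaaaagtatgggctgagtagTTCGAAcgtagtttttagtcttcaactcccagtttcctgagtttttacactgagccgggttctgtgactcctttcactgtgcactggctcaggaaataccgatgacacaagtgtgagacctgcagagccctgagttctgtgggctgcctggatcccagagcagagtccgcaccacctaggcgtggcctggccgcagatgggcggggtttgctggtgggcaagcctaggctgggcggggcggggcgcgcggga
Polq: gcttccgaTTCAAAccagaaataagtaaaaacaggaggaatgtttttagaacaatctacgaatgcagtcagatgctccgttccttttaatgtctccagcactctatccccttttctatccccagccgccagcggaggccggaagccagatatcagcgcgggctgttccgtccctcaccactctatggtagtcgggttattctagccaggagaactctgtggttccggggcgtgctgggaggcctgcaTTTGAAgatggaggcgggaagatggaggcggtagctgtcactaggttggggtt
Fanci: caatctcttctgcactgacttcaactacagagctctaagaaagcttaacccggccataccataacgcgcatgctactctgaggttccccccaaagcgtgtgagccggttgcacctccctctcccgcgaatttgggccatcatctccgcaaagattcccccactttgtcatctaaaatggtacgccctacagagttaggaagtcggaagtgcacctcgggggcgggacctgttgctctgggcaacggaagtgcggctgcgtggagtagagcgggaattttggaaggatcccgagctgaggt
Bard1: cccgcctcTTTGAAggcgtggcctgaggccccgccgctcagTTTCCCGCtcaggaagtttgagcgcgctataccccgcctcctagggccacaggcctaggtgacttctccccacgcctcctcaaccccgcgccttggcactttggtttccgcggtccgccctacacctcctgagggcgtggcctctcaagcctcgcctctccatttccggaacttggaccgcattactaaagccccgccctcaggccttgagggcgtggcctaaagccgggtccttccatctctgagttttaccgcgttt
The CHR-type letters occurred in Neil3, Polq and Bard1, and those of Polq include a match that begins 3 bases before the start. Bard1 also held TTTCCCGC, from 209 bases before the start, and Fanci held none of the motifs. Matches and distances depend on the RefSeq start used. In GENCODE M21 Fanci starts at 79391929, so its window lies inside that gene span, and Bard1 starts at 71103146, upstream of its RefSeq start. No matches overlapped each other in these windows. With 1 window for each of 27025 gene symbols, 19.4% held a CHR-type motif, 2.42% an E2F-type motif and 37.9% the NF-Y-type motif. Of the 41 members 34 had a window, of which 5 held a CHR-type motif (14.7%, under the share of all symbols), 8 an E2F-type motif (23.5%) and 18 the NF-Y-type motif (52.9%). Besides Bard1, the E2F-type letters were found at Brca2, Clspn, Topbp1, Chek1, Rad51c, Fancg and Mdc1. A match describes the letters only and does not show that a factor binds there.

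Neil3 had the strongest evidence among the members by adjusted p-value. It encodes a DNA glycosylase that can unhook crosslinked strands at a fork (GENCODE M21, GRCm38: chromosome 8, minus strand, 53586867 to 53639065). It had 109, 142 and 105 CPM in WT and 43.6, 46.5 and 36.6 CPM in ΔrsCBE. Every ΔrsCBE library was thus far below the lowest WT library. The means were 119 ± 20.4 and 42.2 ± 5.07 CPM (SD, n = 3), 2.72-fold lower in ΔrsCBE, with log2 fold change -1.44 ± 0.20 (SE) and edgeR adjusted p-value 0.000101. The call held in each of 13 other fits, with edgeR or DESeq2 adjusted p-values from 6.31e-09 to 0.00197.

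Polq encodes DNA polymerase theta, which joins ends through short stretches of matching bases and serves as an alternative to recombination (chromosome 16, 37011786 to 37095417, plus strand). Its levels were 58.4, 76.0 and 77.6 CPM in WT and 31.5, 35.1 and 21.5 CPM in ΔrsCBE, again without overlap. It was 2.39-fold lower, with log2 fold change -1.26 ± 0.24 (SE) and edgeR adjusted p-value 0.00261. The call was lost without WT replicate 3 (edgeR adjusted p-value 0.0738), where the log2 fold change was -1.15.

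Blm, Mus81 and Slx4 act with Neil3 and Polq on joined or broken molecules, and they did not share one direction. Blm, a helicase that undoes recombination intermediates, had 64.9, 58.9 and 47.5 CPM in WT and 36.3, 39.3 and 16.4 CPM in ΔrsCBE. Its log2 fold change was -0.83 (95% interval -1.39 to -0.28), and it did not pass (edgeR adjusted p-value 0.153). For Slx4, the scaffold that holds structure-specific nucleases, the levels were 133, 149.6 and 128 CPM in WT and 168, 147 and 177 CPM in ΔrsCBE. Only ΔrsCBE replicate 2 fell inside the WT range, the log2 fold change was 0.27 (interval -0.03 to 0.58), and it did not pass the test (edgeR adjusted p-value 0.574). Mus81, a nuclease subunit, had a log2 fold change of 0.24 (interval -0.44 to 0.91), and its partner Eme1 had 48 counts in all and was not tested.

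Of the Fanconi genes, Fanci alone passed the test. It acts at the ubiquitin step with Fancd2, and whether the genes of this step differ from the core complex was not tested. Fanci, one of the ubiquitinated pair, lies on chromosome 7, 79391929 to 79450264, plus strand. It had 35.7, 31.9 and 26.9 CPM in WT and 9.68, 12.4 and 11.4 CPM in ΔrsCBE. The highest ΔrsCBE library was therefore well below the lowest WT library. It was 2.73-fold lower, with log2 fold change -1.45 ± 0.34 (SE) and edgeR adjusted p-value 0.0213. Fanci passed the low-count filter through its WT libraries alone. Its ΔrsCBE libraries had 8, 12 and 9 counts, under the minimum once scaled to library size. The call is thus for a gene that the filter admitted by its higher group. The gene had 98 counts in all, and its call was lost in edgeR when a library was left out, with adjusted p-values of 0.108, 0.0564 and 0.0713 without WT replicates 1 to 3 and 0.0605 and 0.0928 without ΔrsCBE replicates 1 and 3. It held without ΔrsCBE replicate 2 (edgeR adjusted p-value 0.0264), and DESeq2 gave an adjusted p-value of 0.102. Exons of Polg on the other strand cover 15.95% of its exon length, and it is not stated whether counting used the strand.

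Fancd2, the partner of Fanci, had 27.6, 14.7 and 30.9 CPM in WT and 18.2, 10.3 and 5.05 CPM in ΔrsCBE. The genotypes overlapped, since ΔrsCBE replicate 1 was above WT replicate 2. The log2 fold change was -1.21 (95% interval -2.03 to -0.39) with an edgeR adjusted p-value of 0.159, and it passed the threshold only when ΔrsCBE replicate 1 was left out (0.0432). Brip1, a helicase that binds BRCA1, had 50.3, 63.8 and 35.6 CPM in WT and 23.0, 31.0 and 22.7 CPM in ΔrsCBE. Its groups did not overlap, the log2 fold change was -0.85 (interval -1.43 to -0.28), and it did not pass (edgeR adjusted p-value 0.155).

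Of the 8 genes of the core complex and its anchor, 4 were tested and 0 passed by edgeR or DESeq2, at an unadjusted p-value under 0.05 also 0. Fancm, the translocase that brings the complex to DNA, ranged from 32.5 to 49.0 CPM in WT and from 21.5 to 35.1 CPM in ΔrsCBE, with a log2 fold change of -0.49 (95% interval -1.08 to 0.10). Fancg, Fanca and Fancc had log2 fold changes of -0.36, -0.15 and -0.06, with intervals that reached from -1.12 to 0.81 and so do not show equal levels. Antisense transcripts share exons with Fancc, and Zfp276 with Fanca. Fance, Fancl, Fancf and Fancb had 38, 22, 10 and 7 counts in all. Fance had 17.8, 12.3 and 7.92 CPM in WT and 6.05, 5.17 and 2.53 CPM in ΔrsCBE, and Fancl had 8.11, 4.90 and 7.13 CPM in WT and 4.84, 2.07 and 0 CPM in ΔrsCBE. Both were lower without overlap, Fancl by a narrow margin. In the fit without a count filter their log2 fold changes were -1.32 ± 0.58 and -1.52 ± 0.78 (SE), as large as that of Fancd2, and neither passed (edgeR adjusted p-values 0.587 and 0.751). Fancf and Fancb had at most 4 counts in a library, too few to show a difference. A level of 3 counts corresponds to 2.38 to 7.36 CPM depending on the library.

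The BRCA1 axis was led by Bard1, the partner that BRCA1 needs for its ubiquitin ligase activity (chromosome 1, 71027498 to 71103146, minus strand). Bard1 had 73.0, 66.2 and 54.6 CPM in WT and 24.2, 39.3 and 32.8 CPM in ΔrsCBE. The genotypes did not overlap, and ΔrsCBE replicate 1 was lowest. The gene was 1.95-fold lower, with log2 fold change -0.96 ± 0.24 (SE) and edgeR adjusted p-value 0.0324. This call was lost in edgeR without WT replicates 1, 2 or 3 (adjusted p-values 0.177, 0.0967 and 0.0718) and without ΔrsCBE replicates 1 or 3 (0.109 and 0.13). It held without ΔrsCBE replicate 2 (0.0122), and the DESeq2 adjusted p-value was 0.128.

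Brca1 itself had 84.4, 71.1 and 69.7 CPM in WT and 60.5, 49.6 and 35.4 CPM in ΔrsCBE. All ΔrsCBE libraries were below all WT libraries, with a log2 fold change of -0.62 (95% interval -1.06 to -0.17), but Brca1 did not pass the test (edgeR adjusted p-value 0.221). Brca2, which acts before strand exchange, was narrow within each genotype, with 44.3 to 48.7 CPM in WT and 35.1 to 36.6 CPM in ΔrsCBE. Its log2 fold change was -0.37 (interval -0.86 to 0.11; edgeR adjusted p-value 0.639). Palb2, the bridge between BRCA1 and BRCA2, had 41 counts in all and was not tested.

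**Figure D2:**
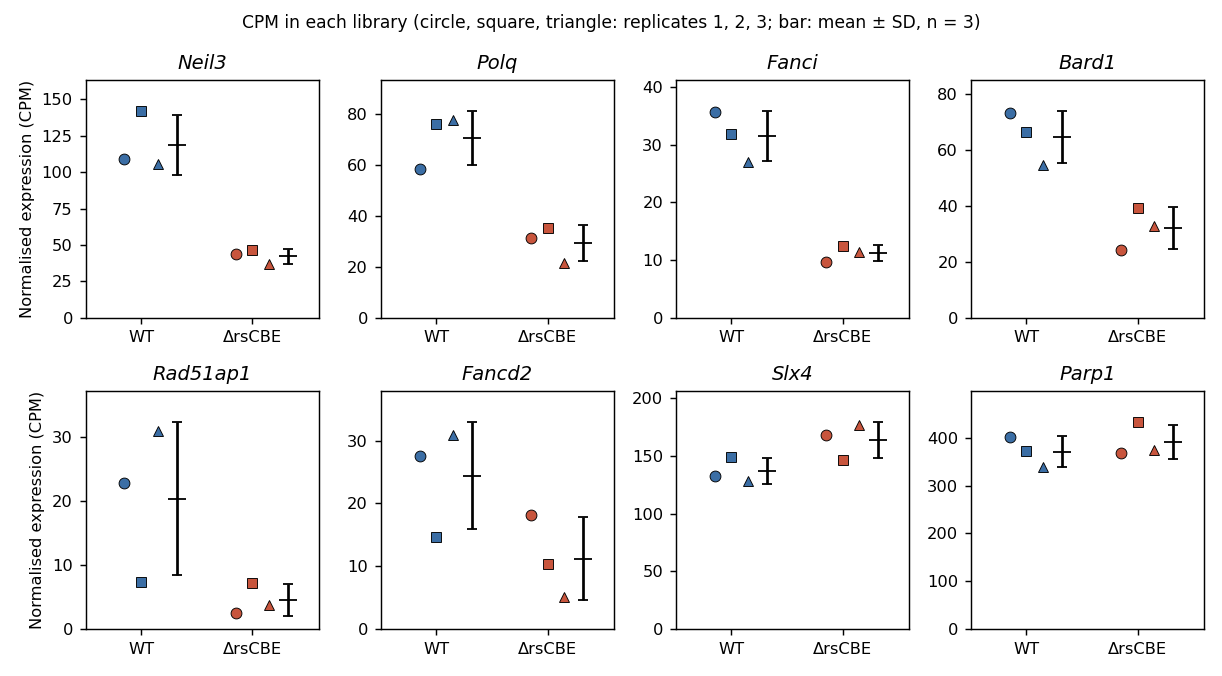
Normalised expression (CPM, vertical axis from 0) of 8 members in each library, with symbols for replicates 1 to 3 and black bars for the mean ± SD (n = 3). The top row shows the 4 called genes, without overlap of the genotypes, and the bottom row shows Rad51ap1, whose lowest WT value of 7.36 CPM adjoins the highest ΔrsCBE value of 7.23 CPM, then Fancd2, Slx4 and Parp1, whose genotypes overlap.

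Rad51ap1, which promotes strand exchange, was too low for the filter and so has no place among the calls above. It had 22.7, 7.36 and 30.9 CPM in WT and 2.42, 7.23 and 3.79 CPM in ΔrsCBE. WT replicate 2 and all ΔrsCBE libraries were at 2 to 7 counts. In a fit without a count filter its log2 fold change was -2.28 ± 0.48 (SE; edgeR adjusted p-value 0.000383), and Rad51ap1, Neil3, Polq, Fanci and Bard1 were then the 5 members called lower, against 0.837% of the 17435 genes in that fit. When ΔrsCBE replicate 3 was left out, its edgeR adjusted p-value was 0.0928.

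Rad54l, Rad54b and Rad52, motors and a mediator of strand exchange, had log2 fold changes of -0.56, -0.54 and -0.10 and edgeR adjusted p-values from 0.722 to 0.969. Rad54l was at 2.45 CPM in WT replicate 2, the lowest of the 6 libraries, and at 27.6 and 25.3 CPM in WT replicates 1 and 3. The Rad54b locus overlaps Fsbp on the same strand over 35.8% of its exon length, so its reads are uncertain. Rad51c, Xrcc3 and Xrcc2, which assist strand exchange, had 47, 54 and 24 counts in all. Rad51c ranged from 11.4 to 17.2 CPM in WT and from 2.42 to 10.3 CPM in ΔrsCBE, without overlap and without a test.

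End resection had no call by edgeR or DESeq2. Of its 4 tested genes 1 was lower at an unadjusted p-value under 0.05, against 6.02% of all tested genes. Exo1, the nuclease that cuts back long stretches, had 21.1, 17.2 and 20.6 CPM in WT and 9.68, 9.30 and 6.31 CPM in ΔrsCBE. The genotypes did not overlap and the log2 fold change was -1.22 (95% interval -2.04 to -0.40), but from 68 counts in all it did not pass (edgeR adjusted p-value 0.153). Exo1 had 8, 9 and 5 counts in ΔrsCBE and passed the low-count filter through its WT libraries alone. Rbbp8, which starts resection, had 68.7 to 85.5 CPM in WT and 38.7, 68.2 and 70.7 CPM in ΔrsCBE, so replicate 1 stood apart and replicate 2 was just under the lowest WT value (log2 fold change -0.41, interval -0.86 to 0.03). Of the MRN complex that first binds the ends, Rad50 and Mre11a had log2 fold changes of -0.18 and -0.08, with intervals from -0.59 to 0.22 and from -0.53 to 0.37. Nbn had 31 counts in all.

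The checkpoint genes Topbp1, Clspn and Atr were lower in every ΔrsCBE library than in any WT library, as were 8.92% of all tested genes. All 3 had an unadjusted p-value under 0.05, against 6.02% of all tested genes lower at that level, but 0 passed by edgeR or DESeq2. Topbp1, the activator of ATR, was the most precisely measured of them, with 237, 196 and 191 CPM in WT and 154, 149.9 and 153 CPM in ΔrsCBE. Its log2 fold change was -0.45 (95% interval -0.74 to -0.16; edgeR adjusted p-value 0.138). Clspn, which carries the signal from ATR to CHK1, had 80.0 to 93.2 CPM in WT and 36.6 to 67.2 CPM in ΔrsCBE (log2 fold change -0.64, interval -1.08 to -0.20; edgeR adjusted p-value 0.167). It passed when ΔrsCBE replicate 2 was left out (edgeR adjusted p-value 0.0435). Atr, the kinase, had 40.4 to 61.3 CPM in WT and 26.5 to 30.0 CPM in ΔrsCBE, with a log2 fold change of -0.69 (interval -1.23 to -0.16; edgeR adjusted p-value 0.27). Chek1, the kinase below it, had 46 counts in all, and Atrip, the partner of ATR, is listed at 0; Trex1 overlaps 16.04% of its exons on the same strand.

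The break sensor and the scaffolds at break sites had estimates near or above 0, none past the threshold by edgeR or DESeq2, and their intervals include small falls. Parp1, which marks single-strand breaks with ADP-ribose, had 402, 373 and 338 CPM in WT and 368, 433 and 375 CPM in ΔrsCBE. These ranges overlapped, and the log2 fold change of 0.09 had a 95% interval from -0.15 to 0.33, which leaves a fall of the size seen for Bard1 outside it. Mdc1, a scaffold that reads phosphorylated histone H2AX, had a log2 fold change of 0.08 (interval -0.24 to 0.41), which was -0.089 without WT replicate 3 and -0.10 among the libraries without Xist counts. Trp53bp1, which protects ends from resection, had 0.23 (interval -0.18 to 0.63). Tubgcp4 on the other strand shares 15.04% of the exon length of Trp53bp1.

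Levels of different genes were compared per kilobase of exon (GENCODE M21). Parp1 was highest, with 70.1 ± 6.07 CPM per kilobase in WT and 74.1 ± 6.74 in ΔrsCBE (SD, n = 3). Mdc1, Neil3, Rad50, Topbp1 and Slx4 followed in WT with means between 17.9 and 23.7 CPM per kilobase (SD 1.46 to 4.71). Differences among these genes were not tested. In ΔrsCBE these genes were further apart. Neil3 had 7.60 ± 0.914 CPM per kilobase, near Clspn (7.45 ± 2.16), and Topbp1 had 13.6 ± 0.18, while Slx4 had 21.4 ± 2.02 and Mdc1 24.6 ± 2.81. The lowest were Fanca, Fancc and Atr with 1.47, 1.90 and 2.05 CPM per kilobase in WT. Exon length here is the union over all annotated transcripts, which lowers the value of genes with long rare exons such as Atr (23.6 kilobases).

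**Figure D3:**
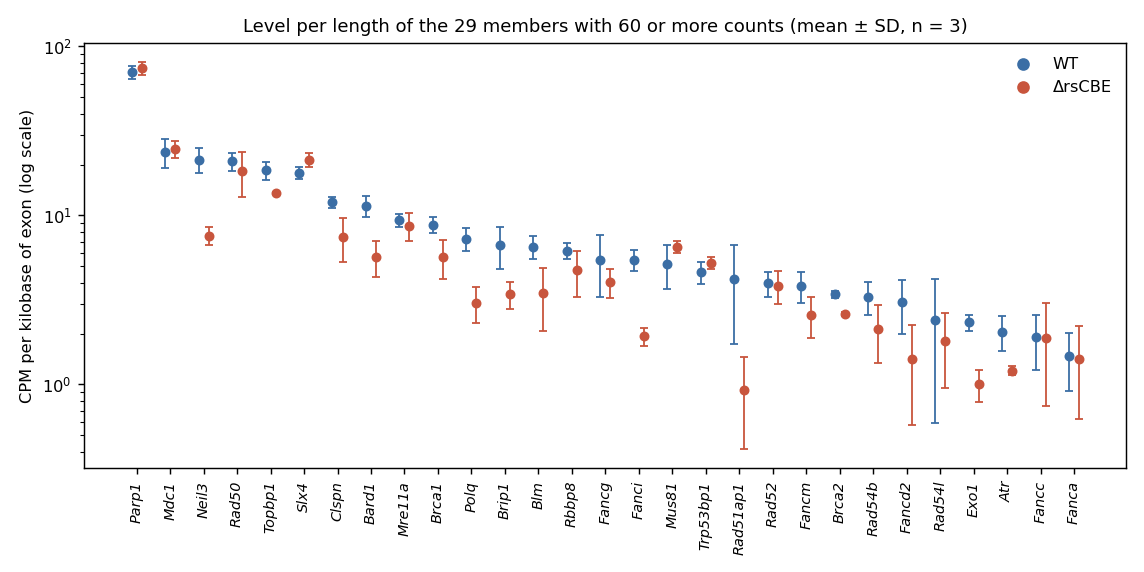
Mean ± SD (n = 3) of CPM per kilobase of exon on a log scale for the 29 members with 60 or more counts, in the order of their WT level, in blue for WT and red for ΔrsCBE. Parp1 stands highest in both genotypes at 70.1 and 74.1, and Neil3 drops from 21.4 to 7.60.

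Other genes of the same pathways were followed through lists of 52 recombination and Fanconi genes and 21 checkpoint and break-signalling genes. Of these 73 genes, 52 were tested, 2 were past the threshold lower in ΔrsCBE (against 1.49% of all tested genes) and 0 were past it higher. At an unadjusted p-value under 0.05 these numbers were 12 and 0, against 469 and 329 of all 7792 tested genes. DESeq2 called 1 lower and 0 higher. The median log2 fold change of the 52 was -0.21. H2ax, the histone variant that is phosphorylated around breaks, had 167, 248 and 186 CPM in WT and 79.9, 103 and 60.6 CPM in ΔrsCBE. It was 2.39-fold lower without overlap (log2 fold change -1.26 ± 0.18 SE, edgeR adjusted p-value 0.000182). Fignl1, an ATPase of the recombination pathway, had 32.4, 46.6 and 34.8 CPM in WT and 9.68, 21.7 and 7.58 CPM in ΔrsCBE, and log2 fold change -1.45 ± 0.36 (SE; edgeR adjusted p-value 0.0304). Its call was lost in edgeR without WT replicates 2 or 3 (adjusted p-values 0.116 and 0.135) and without ΔrsCBE replicates 1 or 3 (0.0811 and 0.24), and with DESeq2 (0.0748).

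Rpa1, the largest subunit of the protein that coats single strands, had a log2 fold change of -0.57 and did not pass (edgeR adjusted p-value 0.181). Atm, the kinase that answers double-strand breaks, was at log2 fold change -0.02 ± 0.16 (SE). Both genes were named after their values had been seen.

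Other repair routes served for comparison, with 57 genes for classical end joining, mismatch, base excision and nucleotide excision repair. Of these 42 were tested and 0 passed by edgeR or DESeq2 in either direction. At an unadjusted p-value under 0.05, 3 were lower and 2 higher, against 469 and 329 of all 7792 tested genes. Median log2 fold changes were 0.02, -0.04, -0.14 and 0.05 in that order, against -0.47 for the tested members. The difference between the lists was not tested.

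Genes of the dividing cell moved with the members. Of 32 S-phase genes 28 were tested and 4 were lower past the threshold, with -0.53 as their median log2 fold change. Of 32 G2 and M phase genes 29 were tested and 23 were lower, with a median of -1.19. These calls stood against 1.49% of all tested genes. DESeq2 called 3 of the S-phase and 20 of the G2 and M phase genes lower, and neither tool called any gene of these lists higher. Summed over the list, S-phase genes were at 2167 to 2429 CPM in WT and 1274 to 1827 CPM in ΔrsCBE, and G2 and M phase genes at 7476 to 8462 and 3132 to 4973 CPM. The 41 members summed to 2039 to 2273 CPM in WT and 1651 to 1877 CPM in ΔrsCBE. Members took 0.225%, 0.213% and 0.198% of all counts in WT and 0.162%, 0.182% and 0.164% in ΔrsCBE, with 95% Wilson intervals from 0.19% to 0.237% in WT and from 0.154% to 0.191% in ΔrsCBE that cover counting error only. The part of the cell-cycle genes in the members' result was not tested. Markers of pro-B and large pre-B cells, the cycling stage before, summed to 725 to 912 CPM in WT and 742 to 887 CPM in ΔrsCBE, and of these 11 genes 4 were tested and 0 passed, with Vpreb2 at 0 in every library.

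**Figure D4:**
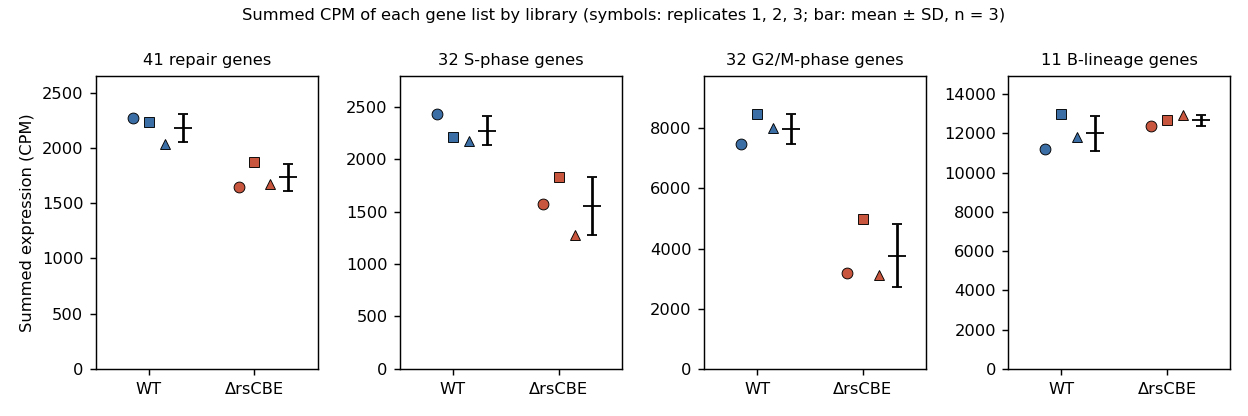
Summed CPM (vertical axis from 0) in each library for the 41 members, 32 S-phase genes, 32 G2 and M phase genes and 11 B-lineage genes, with symbols for replicates 1 to 3 and bars for the mean ± SD (n = 3). The first 3 lists are lower in every ΔrsCBE library than in any WT library, ΔrsCBE replicate 2 is the highest of its genotype in each of them, and the B-lineage sums overlap.

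The ΔrsCBE libraries also differed among themselves. Of the 29 members with enough counts, 15 had their highest ΔrsCBE value in replicate 2, and 12 and 13 had their lowest in replicates 1 and 3. Replicate 2 also had the highest Mki67 level of the genotype, 2418 CPM against 1528 and 1521 CPM, where WT libraries had 3472 to 3759 CPM. Across all 6 libraries, replicate 3 of ΔrsCBE was lowest for 12 members and replicate 1 for 9. The order of the libraries was not counted over all tested genes, so it is not shown to be particular to the members.

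Sex pattern and genotype were in part confounded, so the comparison was repeated within the 4 libraries without Xist counts, 3 WT against ΔrsCBE replicate 1. There the log2 fold change was below 0 for 23 of the 28 members, with a median of -0.59. Neil3, Polq, Bard1 and Rad51ap1 were past the threshold in this fit, against 1.57% of its genes called lower, with log2 fold changes of -1.40, -1.18, -1.37 and -3.18 (edgeR adjusted p-values 0.000584, 0.0385, 0.022 and 0.0156). Fanci was not (log2 fold change -1.65, edgeR adjusted p-value 0.0972). This fit takes the spread from the WT libraries and assumes that the lone ΔrsCBE library varies like them.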

How the data were processed

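RNA was profiled in FACS-sorted small pre-B cells of 3 WT and 3 ΔrsCBE samples. Per the labels, ribosomal RNA was depleted and a strand-marking total RNA kit (SMARTer, Takara) was used. The deposited table holds raw read counts per gene symbol, 1 column per library, and each column name is the name its sample carries in the labels. The submitters' processing notes name Trim Galore 0.6.10, STAR 2.7.11, HTSeq, DESeq2 and the build mm10, without roles; the annotation and strand setting are not given in the sources used here. Xist had 1603 counts and its antisense gene Tsix 2 in ΔrsCBE replicate 2.

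Counts were tested with edgeR 4.0.16 in R 4.3.3: filterByExpr (minimum count 10), TMM scaling (factors 0.978 to 1.02), robust glmQLFit and glmQLFTest with genotype alone, and Benjamini-Hochberg adjustment over 7792 genes. Standard errors come from the F statistic. The code was tested on simulated data. Members and lists were chosen with earlier results of these data known. Every member with 60 or more counts was to be named, and other pathway genes only where past the threshold. Alternatives covered scaling, DESeq2 1.42.0, count filters, the replicate block, the sex pattern and each library left out. Positions and exon lengths are from GENCODE M21, promoters from RefSeq GRCm38.p6.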

Additional observations from a re-analysis of the deposited data

How the results depend on the processing

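The 4 members called lower stood against 2 with the DESeq2 Wald test (Neil3 and Polq) and 1 to 6 when a library was left out: 2 without WT replicate 1, 1 without WT replicate 3, 2 without ΔrsCBE replicate 3 and 6 without ΔrsCBE replicate 2. Over all tested genes, 116 were called lower in the main fit and 83 with DESeq2. In the fits just named that left a library out, 99, 52, 53 and 153 were called lower, in that order. The 2 other pathway genes called lower became 1 with DESeq2 and lay between 1 and 3 when a library was left out. The cause was not tested. No member and no other pathway gene was called higher in any of these fits. The log2 fold changes of 28 members, Fignl1 and H2ax under 13 alternatives gave 390 values, of which 13, from 7 members with values near 0, had the opposite sign. Among the 4 libraries without Xist counts these were 0.059 for Mre11a, 0.62 for Fancc, -0.00073 for Parp1 and -0.10 for Mdc1. With a library left out, values ran from -0.24 to 0.10 for Rad52, -0.16 to 0.053 for Mre11a, -0.35 to 0.033 for Rad50, -0.58 to 0.22 for Fanca, -0.55 to 0.29 for Fancc and -0.089 to 0.24 for Mdc1. Same-numbered samples showed no visible shared deviation (correlations 0.01, 0.02 and 0.01). Whether samples were prepared in pairs is not stated in the sources used here. With the replicate block 4 members and 2 other pathway genes were again called lower. No scaling moved the median of all genes by more than 0.1. Depth limits the 12 members under 60 counts most.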
